A study of Mus musculus with 9 samples.

Results

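The COPI coatomer subunit genes described here are Copa, Copb1, Copb2, Copg1, Copg2, Arcn1, Cope, Copz1 and Copz2, 9 of the 21899 genes in the deposited expression table, chosen by name from the known composition of the coat. Each of the 9 had enough counts in these libraries to be tested. COPI is the protein coat of vesicles that carry escaped ER proteins and Golgi enzymes backwards, from the Golgi to the ER and between Golgi cisternae. The GTPase Arf1, once loaded with GTP on Golgi membranes, recruits the preassembled coatomer from the cytosol. Coatomer has a cage-like part, made of α-COP (Copa), β′-COP (Copb2) and ε-COP (Cope), and an adaptor-like part related to the clathrin adaptors, made of β-COP (Copb1), δ-COP (Arcn1), γ-COP (Copg1 or Copg2) and ζ-COP (Copz1 or Copz2).

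RNA was sequenced from Neuro-2a (N2a) cells, a mouse neuroblastoma line labelled as neuroblasts, to ask how loss of Arf1 changes gene expression. The control group expressed a hairpin against luciferase (shlucif), and the Arf1-deficient N2a cells expressed 1 of 2 hairpins against Arf1 (shArf1-1 or shArf1-2), with 3 libraries per group and no further treatment in the labels. Libraries held between 11182479 and 15594615 counts. The labels do not say whether replicates were separate cultures, so p-values measure the spread between these libraries, which may be technical.

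Arf1 was at 328, 316 and 328 FPKM (counts scaled to gene length and library total) in the shlucif libraries, at 130, 128 and 127 FPKM with shArf1-1, and at 166, 157 and 171 FPKM with shArf1-2. Every Arf1-deficient library lay below every shlucif library, and shArf1-1 left less Arf1 RNA than shArf1-2. In log2 fold change against shlucif, shArf1-1 gave -1.39 and shArf1-2 gave -1.05, which differ by 0.34 and passed edgeR's quasi-likelihood test (adjusted p = 1.16e-05). Both targets lie in the coding sequence on the minus strand of chromosome 11 (GRCm38), the shArf1-1 target in exon 3 at chr11:59213222-59213242 and the shArf1-2 target in exon 2 at chr11:59213386-59213406. They are shown because the same 2 sequences separate the groups of every comparison.
shArf1-1: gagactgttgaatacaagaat
shArf1-2: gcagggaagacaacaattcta
Neither target occurs whole in the longest coding transcript of any COPI member, where the longest shared stretch was 10 bases for shArf1-1 and 9 bases for shArf1-2.

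Markers of other cells moved with the groups. All 18 macrophage or microglia markers on the list were in the table, and 16 were tested, of which all 16 were lower in Arf1-deficient cells, beside 35.6% of all tested genes. Their summed level was 1348, 1249 and 1166 FPKM in the shlucif libraries, led by Spp1 at 996, 934 and 875 FPKM, and Gpnmb and Lyz2 came next in mean level. With shArf1-1 the sum was 1.00, 1.11 and 1.30 FPKM, and with shArf1-2 it was 1.02, 1.25 and 1.32 FPKM. Ctss, Itgam, Spi1, Aif1, C1qa, C1qb and C1qc were at 0 counts in all 6 Arf1-deficient libraries, though C1qa had at most 1 count and Aif1 at most 5 counts in a shlucif library. Of the neuroblast or neuron markers 13 of 15 were tested, 10 were higher, beside 33.8% of all tested genes, and 1 was lower, and their sum was 1048 to 1064 FPKM in the shlucif libraries and 1670 to 1980 FPKM in the Arf1-deficient libraries, led by Tubb3 in all 9, with Nefm at 0 throughout. The fibroblast, astrocyte and oligodendrocyte lists summed to at most 4.84 FPKM in any library, the oligodendrocyte sum being mostly Mbp, and 1 tested gene of each was lower. Col3a1, Aqp4, Slc1a3, Mag and Olig2 were at 0 in all 9 libraries. Since each of the 3 shlucif libraries carried the macrophage RNA, the part of these markers in the COPI results was not tested, and in bulk RNA fewer cells of a type and less RNA per cell cannot be told apart.

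Copa was the most abundant member and Copz2 the least in all 3 groups. In the shlucif libraries the mean levels were 61.3 ± 0.26 FPKM (SD, n = 3) for Copa, 50.6 ± 0.54 for Copz1, 31.8 ± 0.88 for Copb1, 30.2 ± 2.43 for Cope, 26.5 ± 0.10 for Copb2, 24.2 ± 1.07 for Copg2, 19.0 ± 0.28 for Copg1, 13.2 ± 0.46 for Arcn1 and 3.53 ± 0.50 for Copz2. Neighbours in that order had separate ranges over the 3 libraries, except Copb1 and Cope. With shArf1-1 the overlapping neighbours were Cope with Copb2 and Copg2 with Arcn1, and with shArf1-2 they were Copb2 with Copb1. Cope, Copb2 and Copg1 each ranked 1 place higher in both Arf1-deficient groups than with shlucif, Copg2 ranked 1 place lower and Copb1 ranked 2 places lower.

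The order among the middle members rests on the gene length used. The listed lengths are between 1.29 times (Copg2) and 3.66 times (Arcn1) that of the longest coding transcript in GENCODE. Computing FPKM with that transcript's length, a scale chosen after seeing the data, put Copg1 at 50.5 and Arcn1 at 48.3 with shlucif, both above Copg2 at 31.3. Copa and Copz1 stayed in the first 2 places and Copz2 in the last on both scales in every group. Changes between groups within 1 gene do not depend on the listed length in either unit.

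**Figure D1:**
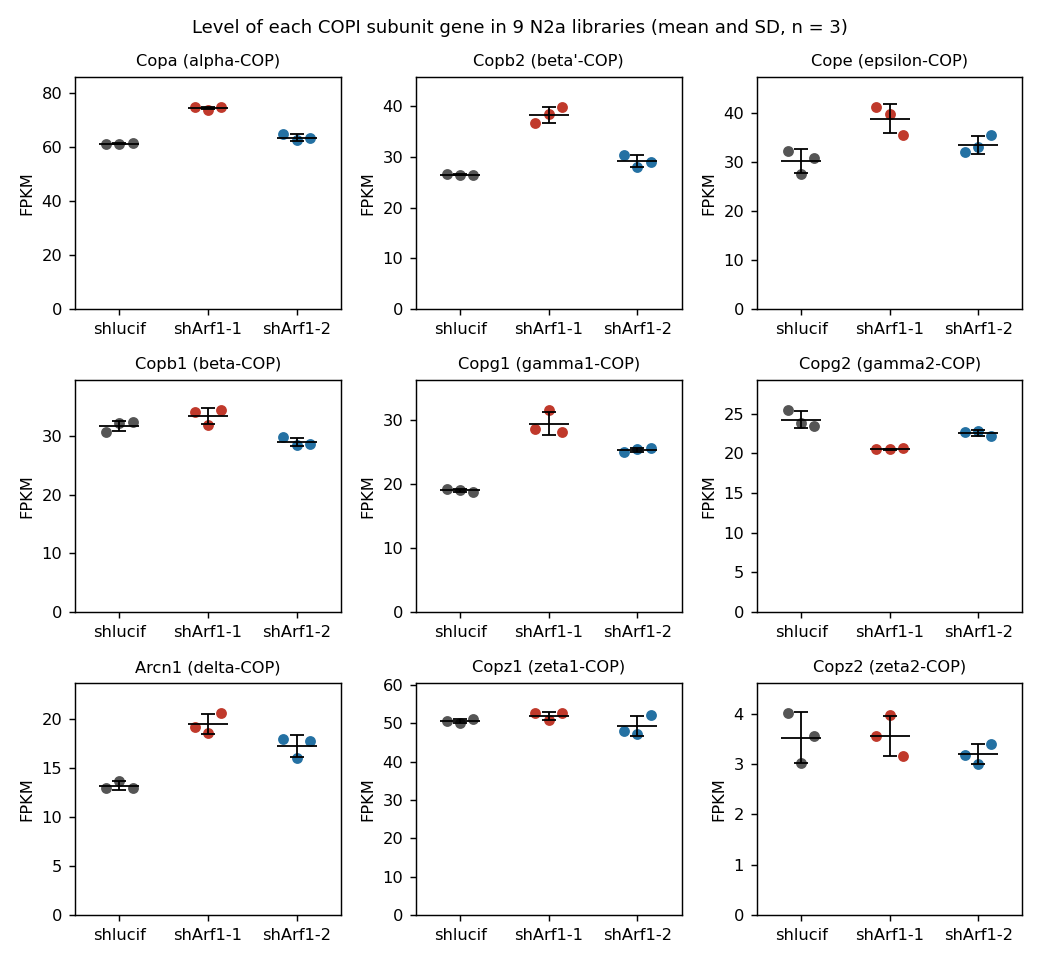
Level of each COPI subunit gene in FPKM (y axis, from 0) in each library of the 3 groups (x axis). Points are libraries, and the black marks are the mean and SD (n = 3). In FPKM, Copa, Copb2, Copg1 and Arcn1 lie higher in all 6 Arf1-deficient libraries than in the shlucif libraries, and Copg2 lies lower. On the TMM scale Copa and Copb2 overlap shlucif. Of all tested genes 69.4% were called in the comparison of these groups.

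In the comparison of 6 Arf1-deficient with 3 shlucif libraries, 6 of the 9 members passed the threshold (adjusted p under 0.05), beside 69.4% of the 12448 genes tested. The 5 genes Copa, Copb2, Cope, Copg1 and Arcn1 rose, beside 33.8% of tested genes, and Copg2 fell, beside 35.6%. The share of members called was thus close to that of all genes. The members' median log2 fold change was 0.10, and that of all tested genes was -0.0004. The fold changes are scaled by TMM and run lower than FPKM ratios, because scaling by library size raises the median of all tested genes by 0.062. A correction for gene length raised that median by 0.20, and changed the split of all calls from 4210 higher and 4427 lower to 6159 higher and 3056 lower. With it 7 members were called, each higher: Copb1 and Copz1 were added and Copg2 was no longer called. Copg1 (0.59), Arcn1 (0.51), Copb2 (0.48), Cope (0.39) and Copa (0.26) lay above the shift of all genes, and Copz1 (0.13), Copb1 (0.12), Copz2 (0.090) and Copg2 (-0.027) lay below it. A correction from an outlier-resistant trend, added after seeing the data, kept the median at -0.010 and gave 4 members higher and 1 lower.

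All 3 cage-like subunits rose in that comparison, which averages the hairpins. Taken singly on the TMM scale, all 3 were called higher with shArf1-1 and 0 with shArf1-2. Copb2 encodes β′-COP, which with α-COP recognises dilysine signals on ER proteins. Its level was 26.6, 26.5 and 26.4 FPKM with shlucif, 36.6, 38.5 and 39.8 FPKM with shArf1-1, and 30.5, 28.0 and 29.1 FPKM with shArf1-2. The shArf1-1 libraries were the highest, and in FPKM neither hairpin group overlapped shlucif, whereas on the TMM scale shArf1-2 overlapped shlucif and 5 of 6 libraries with an Arf1 hairpin exceeded the control mean. The log2 fold change was 0.27 (standard error 0.05, edgeR adjusted p = 4.34e-06), and it missed the threshold in a fit of 2 groups that counts the difference between the hairpins as spread (0.28, edgeR adjusted p = 0.0559, the highest of 22 alternatives, of which the lowest was 2.06e-11).

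Copa, which encodes α-COP, was at 61.2, 61.1 and 61.6 FPKM with shlucif, 74.6, 73.9 and 74.7 FPKM with shArf1-1, and 64.8, 62.5 and 63.2 FPKM with shArf1-2. The shArf1-1 libraries stood apart from the rest, and the shArf1-2 libraries lay close above shlucif in FPKM and overlapped it on the TMM scale. Its log2 fold change of 0.10 (standard error 0.04, edgeR adjusted p = 0.0277) was the smallest of the calls. It was not past the threshold in the fit of 2 groups (0.11), with the outlier-resistant length correction (0.031), or without shlucif replicate 1 (0.11), shlucif replicate 2 (0.091), shlucif replicate 3 (0.11) or shArf1-2 replicate 1 (0.095).

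Cope, which encodes ε-COP, a subunit that stabilises α-COP, was at 32.3, 27.5 and 30.9 FPKM with shlucif, 41.2, 39.9 and 35.5 FPKM with shArf1-1, and 32.1, 33.1 and 35.6 FPKM with shArf1-2. All 6 libraries with an Arf1 hairpin exceeded the control mean, and the shArf1-2 libraries overlapped the shlucif range. The log2 fold change was 0.19 (standard error 0.06, edgeR adjusted p = 0.00499), and 0.12 without shlucif replicate 2, the lowest library, where the call was lost (edgeR adjusted p = 0.102, the highest of 22 alternatives, of which the lowest was 1.39e-07).

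The γ-COP genes moved in opposite directions. Copg1 was at 19.3, 19.0 and 18.7 FPKM with shlucif, 28.6, 31.5 and 28.1 FPKM with shArf1-1, and 25.0, 25.4 and 25.5 FPKM with shArf1-2. The 3 groups did not overlap. The log2 fold change of 0.46 (standard error 0.05, edgeR adjusted p = 5.58e-11) was the largest among the members, and it stayed past the threshold in all 22 alternatives, between 0.37 and 0.59.

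Copg2, its paralog, was at 25.4, 23.8 and 23.4 FPKM with shlucif, 20.5, 20.5 and 20.6 FPKM with shArf1-1, and 22.7, 22.8 and 22.2 FPKM with shArf1-2. Every Arf1-deficient library was below every shlucif library. Its log2 fold change was -0.23 (standard error 0.05, edgeR adjusted p = 0.000107), and -0.23 with the outlier-resistant length correction. The length correction that raised the median of all genes by 0.20 gave -0.027, which was not past the threshold and is below that median. Its annotation overlaps that of Mest, an imprinted gene on the opposite strand, over 912 exon bases, and Mest was at 132 to 136 FPKM with shlucif, 131 to 139 FPKM with shArf1-1 and 141 to 160 FPKM with shArf1-2. Whether the counting used strand is not stated in the sources used here, so reads of the shared bases cannot be assigned.

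Arcn1 encodes δ-COP. It was at 12.9, 13.7 and 12.9 FPKM with shlucif, 19.2, 18.6 and 20.6 FPKM with shArf1-1, and 18.0, 16 and 17.8 FPKM with shArf1-2. Both hairpin groups lay above shlucif without overlap. The log2 fold change was 0.41 (standard error 0.05, edgeR adjusted p = 2.72e-09), and it passed in all 22 alternatives, between 0.29 and 0.51.

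The remaining 3 adaptor-like genes did not pass the threshold. Copb1, for β-COP, was at -0.09 in log2 fold change (standard error 0.05, edgeR adjusted p = 0.0846), with levels of 30.7 to 32.3 FPKM for shlucif, 31.9 to 34.4 FPKM for shArf1-1 and 28.4 to 29.8 FPKM for shArf1-2. It passed at -0.10 with DESeq2, upper quartile scaling or a filter of 10 counts, and passed in the other direction at 0.12 with the gene length correction, as Copz1 did at 0.13, both less than the 0.20 by which that correction raised the median of all genes. Copz1, the abundant ζ-COP gene, ranged from 47.3 to 52.6 FPKM over the 9 libraries, with a log2 fold change of -0.06 (standard error 0.05, edgeR adjusted p = 0.229). For Copz2, with 89 to 122 counts per library, the log2 fold change of -0.13 had a standard error of 0.14, so that a change of this size was not detectable at this depth, and it was -0.024 without shlucif replicate 1 and -0.24 without shlucif replicate 2.

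Each hairpin was then set against shlucif. These comparisons share the 3 shlucif libraries, so they are given side by side. With shArf1-1, 6 of 9 members passed, 5 higher and 1 lower, beside 67.5% of all tested genes (33.1% higher and 34.4% lower). The log2 fold changes were 0.58 for Copg1, 0.51 for Arcn1, 0.48 for Copb2, 0.31 for Cope, 0.23 for Copa and -0.29 for Copg2, with standard errors of 0.05 to 0.07. With shArf1-2, 4 of 9 passed, 2 higher and 2 lower, beside 63.4% of all tested genes (30.9% higher and 32.6% lower). These were Copg1 at 0.34, Arcn1 at 0.32, Copb1 at -0.20 and Copg2 at -0.17. The gene length correction, which raised the median of all genes by 0.21 with shArf1-1 and 0.19 with shArf1-2, gave 7 and 5 calls, each higher, and the outlier-resistant one gave 5 higher and 1 lower with shArf1-1 and 2 higher and 2 lower with shArf1-2.

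Whether the cage-like genes passed with shArf1-2 depends on the scaling, and with TMM they did not. Copb2 was at 0.067, Cope at 0.080 and Copa at -0.020, the last turning to 0.051 under library size scaling, under which Copb2 and Cope passed (0.14 and 0.15). Copb2 also passed with limma on log2 FPKM (0.13), and all 3 passed with the gene length correction (Copb2 0.26, Cope 0.26 and Copa 0.13). That correction raised the median of all genes by 0.19, and Copb2 and Cope were above this shift and Copa below it. Single libraries move these values: Cope was at 0.0090 without shlucif replicate 2, 0.031 without shArf1-2 replicate 3 and 0.14 without shlucif replicate 1, and Copb2 at 0.032 without shArf1-2 replicate 1 and 0.10 without shArf1-2 replicate 2. Copz1 had -0.11 with shArf1-2, which passed without shArf1-1 replicate 2 (-0.11) and without shArf1-2 replicate 3 (-0.16). Copg2 did not pass with shArf1-2 without shlucif replicate 1 (-0.13) or under library size scaling or limma on log2 FPKM (-0.10 each). The gene length correction gave 0.021 for it, -0.074 for Copg2 with shArf1-1 and -0.0022 for Copb1 with shArf1-2, none of them calls. Each moved by about as much as all genes did, and the outlier-resistant correction, which kept the median near 0, kept the 3 calls.

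**Figure D2:**
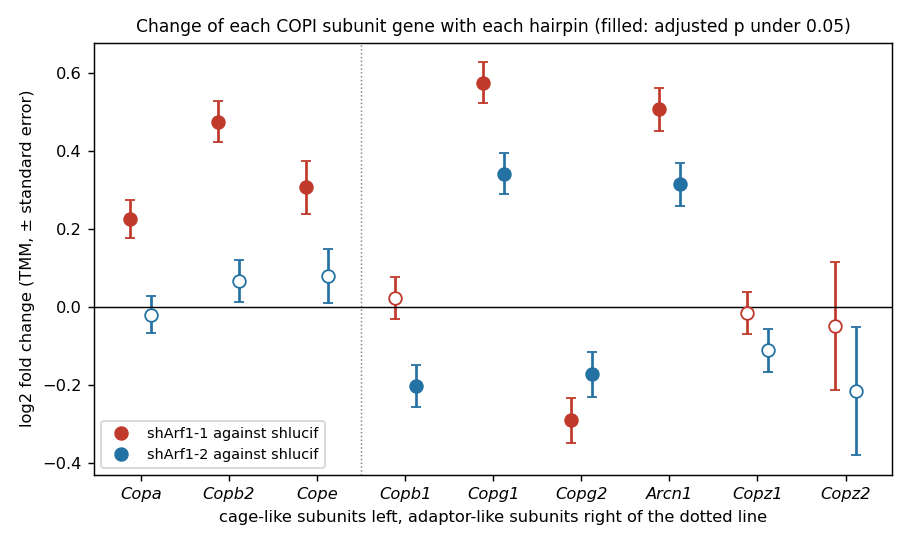
Log2 fold change of each COPI subunit gene (y axis, TMM scale) with shArf1-1 (red) and shArf1-2 (blue) against shlucif. Bars are standard errors from edgeR, and filled points have an adjusted p under 0.05. Copg1 and Arcn1 are above 0 and Copg2 is below 0 with both hairpins, though Copg2 with shArf1-2 was at 0.021 with the gene length correction, which raised the median of all genes by 0.19. On the TMM scale shown the cage-like points are filled for shArf1-1 and open for shArf1-2.

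Compared with each other, the hairpins differed in 6 of 9 members, each lower with shArf1-2, beside 14.4% of all tested genes (6.98% higher and 7.46% lower). Of all genes 1798 were called, against 1159 without shArf1-1 replicate 1 and 1194 without shArf1-2 replicate 1, and 929 were lower, against 589, 597 and, without shArf1-2 replicate 2, 580. Copb2 differed most, by -0.41 (standard error 0.05, edgeR adjusted p = 1.12e-06). Copa differed by -0.25 (edgeR adjusted p = 0.000417), Copg1 by -0.23 (0.00161), Copb1 by -0.23 (0.00351), Cope by -0.23 (0.0217) and Arcn1 by -0.19 (0.0147). So all 3 cage-like genes were lower with shArf1-2 than with shArf1-1, and this test compares the hairpin libraries directly. Arcn1 and Cope did not pass with limma on log2 FPKM (-0.17 and -0.20). Arcn1 lost the call without shArf1-1 replicate 3 (-0.15) or shArf1-2 replicate 2 (-0.13). Cope lost it without shArf1-1 replicate 1 (-0.18), shArf1-1 replicate 2 (-0.20), shArf1-2 replicate 1 (-0.20) or shArf1-2 replicate 2 (-0.21). Copg2 differed by 0.12, Copz1 by -0.10 and Copz2 by -0.17, which did not pass.

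The paralog genes offer alternative γ- and ζ-COP subunits, so each pair was also read as a share. Copg2 made up 56.9%, 55.5% and 55.6% of the summed γ-COP FPKM in the shlucif libraries, 41.7%, 39.4% and 42.3% with shArf1-1, and 47.6%, 47.3% and 46.5% with shArf1-2. The 3 groups did not overlap, and every Arf1-deficient library was below every shlucif library. The share fell by 11.9 percentage points, from 56.0% ± 0.77 (SD, n = 3) to 44.1% ± 3.43 (SD, n = 6). A two-sided exact permutation test gave p = 0.0238, the smallest value that the test as run can give for 6 against 3 libraries. Every Arf1-deficient library was already above shlucif for Copg1 and below it for Copg2. The share therefore had to separate and p had to be this value, so it adds no support to those results. The test also pools both hairpin groups, and the overlap of Copg2 with Mest limits the share too. Between the hairpins, 3 against 3 libraries cannot go below 0.10, and no test was made. With counts divided by the longest coding transcript the shlucif share was 39.1%, 37.8% and 37.8%, so which paralog leads with shlucif depends on the length. The share was lower in Arf1-deficient cells on both lengths, by 10.4 points with that of the coding transcript.

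**Figure D3:**
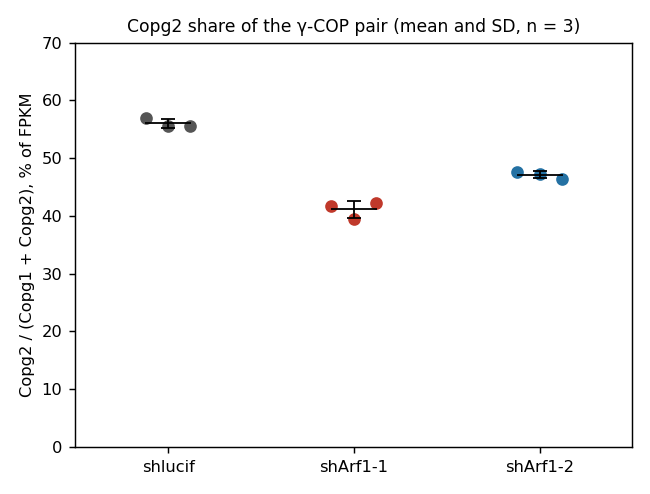
Copg2 as a percentage of the summed Copg1 and Copg2 FPKM (y axis, from 0) in each library of the 3 groups (x axis), with mean and SD (n = 3). The shlucif libraries lie between 55.5% and 56.9% and all Arf1-deficient libraries between 39.4% and 47.6%.

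Copz2 held 7.35%, 5.67% and 6.49% of the summed ζ-COP FPKM with shlucif, 6.31%, 7.25% and 5.68% with shArf1-1, and 6.20%, 5.95% and 6.10% with shArf1-2. The groups overlapped, and the difference of -0.25 points had p = 0.595 in the same two-sided exact permutation test. The longest stretch shared by the chosen transcripts was 30 bases between Copg1 and Copg2 and 21 bases between Copz1 and Copz2. How the authors' counting treated reads that match both genes of a pair is not stated in the sources used here.

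The genes that switch the coat on and off moved in both directions. Of 9 Arf GTPases and regulators that act on the coat, 3 rose, 4 fell and 2 did not pass in the comparison of Arf1-deficient with shlucif cells, with a median log2 fold change of -0.03. The 4 that fell include Arf1, which both hairpins target. Counted with it, 3 and 4 of 9 are near the shares of all tested genes, 33.8% higher and 35.6% lower. The counts ranged from 3 to 5 higher and from 3 to 4 lower over 22 alternatives. Beside Arf1, Arfgap3, a GTPase-activating protein that triggers uncoating, fell by 0.78 and the GTPase gene Arf5 fell by 0.59. Gbf1, which loads Arf1 with GTP at the early Golgi, rose by 0.50, a change close to that of Copg1.

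Among 17 COPI cargo and retrieval receptors 16 were tested, 7 rose, 3 fell and 6 did not pass, with a median of 0.02, beside 69.4% of all tested genes called (33.8% higher and 35.6% lower). Over 22 alternatives 5 to 12 were higher and 1 to 4 lower. The 3 KDEL receptors, which return escaped ER chaperones, diverged: Kdelr2, at a mean of 57.8 FPKM (SD 0.36, n = 3) in shlucif libraries, rose by 0.56, whereas Kdelr3 fell by 1.38 and Kdelr1, named after its values were seen, fell by 0.20. The 9 tested Tmed genes, which include p24 family genes, were counted after their values were seen. Of these 5 rose, Tmed1 (0.79) and Tmed5 (0.32) the most, Tmed3 fell by 0.15 and 3 did not pass. The next list held 9 genes for the ER tether and SNAREs that receive the vesicle, with the SNARE regulators Scfd1 and Scfd2 among them. Of these 5 rose, 1 fell and 3 did not pass, with a median of 0.21. The 6 called of 9 are near the 69.4% of all tested genes. Over 22 alternatives 4 to 8 were higher and 0 to 1 lower, with 0 lower without shlucif replicate 1. Scfd1 rose by 0.62, Zw10 by 0.44, Scfd2 by 0.42 and Rint1 by 0.37.

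For the COPII coat, which carries cargo forward from the ER, 12 of 13 genes were tested, 4 rose, 1 fell and 7 did not pass, with a median of 0.05, beside 69.4% of all tested genes called. Over 22 alternatives 3 to 9 were higher and 0 to 3 lower, with 2 lower under DESeq2 and without shlucif replicate 1, shlucif replicate 2 or shArf1-1 replicate 2, and 9 higher with the gene length correction. Sec31a and Sar1a rose by 0.54 each and Sec13 by 0.49, and Sec23a was called lower (-0.19). It passed with shArf1-2 (-0.44) and was at 0.067 with shArf1-1, which did not pass, and the hairpins differed by -0.51 (edgeR adjusted p = 4.49e-07). The gene length correction gave the pooled value as 0.017, which is below the median of all genes under that correction. In the AP-1 adaptor of the trans-Golgi network, another Arf1-dependent coat, 7 of 8 genes were tested, 3 rose, 2 fell and 2 did not pass, with a median of 0.12, and the 5 called of 7 are near the 69.4% of all tested genes. Over 22 alternatives 1 to 5 were higher and 0 to 2 lower, with 1 higher without shArf1-2 replicate 1 and 1 lower without shlucif replicate 2. Ap1s2 rose by 0.35 and Ap1g1 by 0.20, while Ap1s3 and Ap1g2 fell by 0.34 and 0.32. The coats thus had members in both directions, as the COPI genes did, and no difference between the lists was tested.

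The 5 tested genes outside the lists whose pattern was most like the members' median were Srprb, Coq6, Polr2m, Oxct1 and Gle1. Their centred log2 CPM had a root mean square difference of 0.031 to 0.040 from that median over the 9 libraries. Srprb, the β subunit of the signal recognition particle receptor, had mean levels of 23.8, 28.5 and 24.6 FPKM in the shlucif, shArf1-1 and shArf1-2 groups (SD 0.42, 0.85 and 0.20, n = 3 each). In FPKM this is the order of groups that Copa had, but Srprb was picked for its likeness to the members. On the TMM scale shArf1-2 was slightly below shlucif for Srprb (-0.021) and Copa (-0.020), and neither was called.

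The members are spread over 7 chromosomes of GRCm38 by gene identifier. Copa (ENSMUSG00000026553) lies at chr1:172082529-172122330 on the plus strand with 33 exons in its longest coding transcript, and Copb2 (ENSMUSG00000032458) at chr9:98563721-98588382 on the plus strand with 22 exons. Arcn1 (ENSMUSG00000032096) is at chr9:44741564-44767845 on the minus strand with 10 exons. Copg1 (ENSMUSG00000030058) is at chr6:87887814-87913595 on the plus strand and Copg2 (ENSMUSG00000025607) at chr6:30747554-30896794 on the minus strand, with 24 exons each. Exon bases on the opposite strand are also shared by Copa with Ncstn (195) and Gm37756 (708) and by Copg1 with Gm26636 (941), so these counts carry the same limit as those of Copg2.

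Both ζ-COP genes contain a miRNA gene on their own strand outside their exons, Mir148b in Copz1 and Mir152 in Copz2. The mature 3p sequences, from RefSeq (GRCm38.p6), are shown because they share a seed (bases 2 to 8, in capitals) as their hosts share a function. No miRNA was measured here.
mmu-miR-148b-3p: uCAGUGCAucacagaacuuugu
mmu-miR-152-3p: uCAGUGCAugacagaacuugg

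Promoters of 300 bases, 250 before and 50 after the start, were taken from RefSeq (GRCm38.p6) for 8 of the 9 members. The promoter set used here held none for Arcn1. Motifs linked to ER and Golgi stress were searched on both strands. The unfolded protein response element TGACGTGG occurred in Copb1 and Copb2, beside 0.676% of all 32851 promoters. The Golgi stress motif ACGTGGC occurred in Copg1 and Copz2, beside 2.58% of promoters, the cyclic AMP response element TGACGTCA in Cope, beside 1.79%, and the E-box CACGTG in none, beside 7.15%. The ER stress response element, CCAAT and CCACG separated by 9 bases, also occurred in none, beside 0.119%. TGACGTGG and ACGTGGC share the letters ACGTGG, and the genes that hold a motif include members that rose and members that did not pass in the pooled comparison. The promoters of Copg1 (chr6:87887690-87887989, plus strand), Copb2 (chr9:98563481-98563780, plus strand) and Copg2 (chr6:30896745-30897044, minus strand) are printed because the first 2 genes rose and the third fell. Capitals mark ACGTGGC in Copg1, at bases 254 to 260 of the window, and TGACGTGG read on the other strand in Copb2, at bases 244 to 251. No motif searched lay in the Copg2 window.
Copg1: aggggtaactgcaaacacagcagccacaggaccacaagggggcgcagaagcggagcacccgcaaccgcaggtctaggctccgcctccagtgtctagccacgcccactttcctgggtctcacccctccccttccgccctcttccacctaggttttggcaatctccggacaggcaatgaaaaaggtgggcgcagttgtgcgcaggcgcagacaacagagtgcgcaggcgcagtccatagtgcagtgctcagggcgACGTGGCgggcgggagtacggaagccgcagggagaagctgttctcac
Copb2: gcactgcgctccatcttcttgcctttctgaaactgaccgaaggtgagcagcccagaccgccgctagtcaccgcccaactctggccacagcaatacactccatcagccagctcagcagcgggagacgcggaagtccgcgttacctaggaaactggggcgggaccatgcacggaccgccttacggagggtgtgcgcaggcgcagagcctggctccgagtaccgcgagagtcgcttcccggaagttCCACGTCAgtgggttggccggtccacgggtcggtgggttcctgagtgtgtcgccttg
Copg2: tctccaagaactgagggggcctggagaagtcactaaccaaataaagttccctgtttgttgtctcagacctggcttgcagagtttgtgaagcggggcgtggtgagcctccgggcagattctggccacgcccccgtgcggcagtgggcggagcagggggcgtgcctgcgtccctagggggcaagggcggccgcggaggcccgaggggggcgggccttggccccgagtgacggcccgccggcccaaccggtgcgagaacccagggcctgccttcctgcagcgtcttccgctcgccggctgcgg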

How the data were processed

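The authors deposited a whole-number read count, not normalized, and an FPKM value for each gene and library. The deposited FPKM values were recomputed from count, listed gene length and library total, with a largest relative difference of 1.89e-07. The labels describe oligo(dT) enrichment and random priming, and the submitters' processing notes name mm10. The aligner, the counting tool and its strand setting are not given in the sources used here. The table's coordinates differ from GRCm38, so GENCODE positions were used by gene identifier. The columns headed shArf2 were read as the shArf1-2 libraries. Lines without a gene, 8 in all, were left out.

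Counts were analysed in R 4.3.3 with edgeR 4.0.16 (filterByExpr, TMM, robust glmQLFit, glmQLFTest) in 1 fit of 3 groups, and Arf1-deficient is the mean of both hairpin contrasts against shlucif. Calls were made at a p adjusted by Benjamini-Hochberg over 12448 genes of under 0.05. Standard errors are the log2 fold change over the root of the F statistic. The alternatives used DESeq2 1.42.0, limma 3.58.1, other scalings, filters, length corrections, a replicate block, fewer libraries or a fit of 2 groups. The script was tested on simulated counts. The members and lists were chosen with earlier results of these data known. The rule for named genes took the members, Arf1, up to 4 changed genes per list by size of change, the 3 most abundant macrophage markers and the 5 genes of most similar pattern. Other genes are named as leading or absent markers, as annotation that overlaps or lies within a member, or after their values were seen (Kdelr1 and Tmed3).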

Additional observations from a re-analysis of the deposited data

Results flagged for a closer look

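The change with shArf1-2 differed from that with shArf1-1 for 6 of the 9 COPI members in edgeR's test of the difference, beside 14.4% of all tested genes called and 7.46% lower, by -0.41 on the log2 scale for Copb2, -0.25 for Copa, -0.23 for Copb1, -0.23 for Copg1, -0.23 for Cope and -0.19 for Arcn1. Each is lower with shArf1-2. Arf1 itself was higher with shArf1-2 than with shArf1-1, by 0.34.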

How the results depend on the processing

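Across 23 kinds of alternative, 718 of 792 member values kept their direction and side of the threshold, and 28 changed sign. Of those that kept their sign, 29 no longer passed and 17 newly passed. Some that changed sign also crossed the threshold, such as pooled Copz1 (0.13) and Copg2 with shArf1-2 (0.021) under the gene length correction. Copg1 and Arcn1 passed in all 22 alternatives of each of the 3 comparisons against shlucif. The cause of these changes was not tested, also where a library was left out, since the gene filter, scaling and spread were then refitted.

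DESeq2 gave calls for Copb1, Arf1-deficient against shlucif (-0.10), and Copz1 with shArf1-2 (-0.12), as did a minimum of 10 counts in every library (-0.10 and -0.12), and upper quartile scaling gave that for Copb1 (-0.10). Library size scaling changed signs to 0.039 for Copz1 and 0.0060 for Copz2 with shArf1-1 and 0.051 for Copa with shArf1-2, made calls of Copb2 (0.14) and Cope (0.15) with shArf1-2 and ended that of Copg2 (-0.10). Limma on log2 FPKM with 1 or 0.1 added gave Copz1 0.038 and 0.038 and Copz2 0.013 and 0.017 with shArf1-1, and Copa 0.050 and 0.051, Copb2 0.13 and 0.14 (calls) and Copg2 -0.096 and -0.10 (no longer calls) with shArf1-2. Between hairpins it gave Arcn1 -0.17 and -0.17 and Cope -0.20 and -0.21, no longer calls. The fit of 2 groups gave Copb2 0.28 and Copa 0.11, no longer calls.

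The gene length correction raised the median of all genes by 0.20, 0.21 and 0.19 in the pooled, shArf1-1 and shArf1-2 comparisons, so its values include that shift. Without and with the replicate block it gave for Arf1-deficient against shlucif Copb1 0.12 and 0.12, Copz1 0.13 and 0.13, Copz2 0.090 and 0.092, Copg2 -0.027 and -0.026 and Sec23a 0.017 and 0.015, with calls for Copb1 and Copz1 and none for Copg2 or Sec23a. With shArf1-1 it gave Copb1 0.24 and 0.24, Copg2 -0.074 and -0.073, Copz1 0.20 and 0.20 and Copz2 0.19 and 0.19, with calls for Copb1 and Copz1 and none for Copg2. With shArf1-2 it gave Copa 0.13 and 0.13, Copb1 -0.0022 and -0.0030, Copb2 0.26 and 0.26, Cope 0.26 and 0.26, Copg2 0.021 and 0.021 and Copz1 0.072 and 0.071, with calls for Copa, Copb2 and Cope and none for Copb1 or Copg2. The outlier-resistant trend, chosen after seeing the data, ended the Copa call (0.031 and 0.031). The replicate block alone left every member's calls in place. For the Copg2 share (-11.9 points) it allows no p under 0.0741 in the two-sided exact permutation test as run here. Leaving out a shlucif library allows none under 0.0714, so neither can pass in this form of the test.

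Leaving out 1 library at a time gave, for Arf1-deficient against shlucif, 0.091 to 0.11 for Copa (no call without shlucif replicate 1, 2 or 3 or shArf1-2 replicate 1), 0.12 to 0.25 for Cope (no call without shlucif replicate 2, 0.12), -12.6 to -10.9 points for the Copg2 share and -0.67 to 0.17 points for the Copz2 share (0.17 without shlucif replicate 1). Copz2 ranged from -0.24 to -0.024 in that comparison and from -0.16 to 0.060 with shArf1-1. With shArf1-2 the ranges were -0.037 to 0.0003 for Copa, 0.032 to 0.10 for Copb2, 0.0090 to 0.14 for Cope, -0.33 to -0.11 for Copz2, -0.19 to -0.13 for Copg2 (no call without shlucif replicate 1, -0.13) and -0.16 to -0.075 for Copz1 (a call without shArf1-1 replicate 2, -0.11, or shArf1-2 replicate 3, -0.16). Between hairpins they were -0.23 to -0.13 for Arcn1 (no call without shArf1-1 replicate 3 or shArf1-2 replicate 2) and -0.29 to -0.18 for Cope (no call without replicate 1 or 2 of either hairpin). Copz2, with 89 to 122 counts, is the member whose precision depth limits most.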

Other observations

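In the comparison of shArf1-2 with shArf1-1, 7 of 12 tested COPII genes were lower, with a median log2 difference of -0.29, beside 7.46% of all tested genes lower and a median of 0.0000. Of 16 cargo and retrieval receptors 6 were lower (median -0.13), and of 9 genes on the tether and SNARE list 2 were lower (median -0.17). Among 9 Arf GTPases and regulators 1 was higher, the hairpin target Arf1 itself, and 1 was lower. Among 7 AP-1 genes 1 was higher, beside 6.98% of all tested genes higher. The tether and SNARE count was 1 without shArf1-1 replicate 1 or 3 or any 1 shArf1-2 library, and the AP-1 count was 0 without shArf1-1 replicate 1 or 3 or shArf1-2 replicate 2. The COPI members had 6 lower, with a median of -0.23.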
